A study of Enchytraeus crypticus with 54 samples.

Results

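A set of 100 genes was followed in the soil worm *Enchytraeus crypticus*: the genes whose level in unexposed worms was lowest after 7 days relative to 3 days in soil. Of 43750 gene probes on the array, 19499 had a signal above background on all 54 arrays and are called genes here. A level is the log2 processed signal of a gene minus the median of its array over these 19499 genes, so that 0 is the level of the median gene. Genes were kept when the highest of the 3 Control 7 days arrays lay below the lowest of the 3 Control 3 days arrays, which held for 2373 genes (12.2%). The opposite order held for 2199 genes (11.3%). The 100 genes with the largest difference of means were chosen. They were selected on the 6 control arrays, so their control values are a description and carry no test, and the tests below use the 48 copper arrays only.

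Each array measured total RNA of the whole bodies of 20 pooled adults with a well developed clitellum, the swelling of mature worms that forms the cocoon, with 1 dye and 3 arrays for each of 18 groups. The worms were kept without food in a natural Danish soil for 7 or 3 days. Copper was given as the soluble nitrate salt (CuNO3), as nanoparticles of the metal (Cu-NPs), as wires of nanometre width (Cu-NWires) or through soil contaminated in the field long ago (Cu-Field), each at EC20 and EC50, the levels that lower reproduction by 20% and 50%, and the control was soil of an uncontaminated area of the same site. The labels call the 3 arrays of a group biological replicates. RNA of a whole body mixes all tissues, so fewer cells of a type and less RNA per cell cannot be told apart.

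Copper is a cofactor of enzymes such as cytochrome c oxidase and copper/zinc superoxide dismutase, and becomes toxic in excess. Worms of this family take up metals from pore water through the skin and from swallowed soil through the gut. A soluble salt releases copper ions at once, whereas metallic particles and wires release them as they oxidize and dissolve, and copper in soil contaminated long ago is largely bound to soil constituents. The names in the files are identifiers of the array design, either contig numbers or names beginning with GYUW, and the files do not pair them with gene names or functions. The genes are therefore described by identifier, without a role, and the whole-body label could not be set against marker genes.

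In the controls the 100 genes were 12.7-fold to 3.79-fold lower at 7 days than at 3 days, with a median of 4.6-fold (a log2 difference of -2.20, range -3.66 to -1.92). The first by this ranking, contig14152, had levels of 2.60, 1.5 and 2.20 on the Control 7 days arrays, against 5.55, 5.66 and 6.08 on the Control 3 days arrays. The second, contig00202, had 4.03, 1.72 and 3.30 at 7 days, against 7.33, 6.97 and 5.67 at 3 days. The third, contig07971, had -0.40, -0.93 and -1.46 at 7 days, against 2.97, 2.34 and 2.80 at 3 days. In all 3 the days are apart by construction, and the arrays of a day spread most for contig00202.

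The next in order were GYUW2K402HGSSD, contig24536, GYUW2K402JBILH, GYUW2K402J45TH, contig13956, contig00737 and contig14534, with log2 differences of -3.52, -3.51, -3.44, -3.39, -3.21, -3.17 and -3.06. The last gene taken, contig07423, had -2.11, -3.46 and -1.2 on the Control 7 days arrays, against -0.36, -0.09 and -0.56 on the Control 3 days arrays (difference -1.92). The first gene left out, contig08580, differed by -1.91. The ranking is thus almost continuous at its end. Another 195 genes had a larger mean difference than contig07423 but overlapping arrays, and were not taken. One gene, contig00356, was not well above background on any Control 7 days array and has only a bound there, at least 3.17-fold lower than at 3 days, where the dim level is the weakest signal counted as well above background on each array.

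Replicate 3 of the Control 7 days group stood apart and decided which genes were taken. Its array was dim, with a median log2 processed signal of 5.57, against 6.84 on each of the other 2 Control 7 days arrays and 5.73 to 6.34 on the Control 3 days arrays. When the choice was repeated without that array, only 2 of the 100 genes came back, and 98 of the genes then taken overlapped between days on all 6 arrays. Leaving out any other control array kept 67 to 83 of the 100. The genes taken without replicate 3 were strongly expressed, with a median level of 7.44 on that array and 2.53 on the other 2 at 7 days, against 7.22 at 3 days. The 100 genes described here are hence those that were low on the dim array as well, at a median level of -0.06 there and -1.06 on the other 2 arrays, against 1.16 at 3 days.

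The 100 genes had little in common that the identifiers or the array show. Contigs made up 56 of them and names beginning with GYUW the other 44, against 46.9% contigs among all genes. Their mean levels over all arrays ran from -3.34 (GYUW2K401DMS29) to 8.43 (GYUW2K401AWZH1), with a median of -0.09, close to the -0.04 of all genes. Well above background on every array were 61 of the 100, against 65.8% of all genes, and no spot of the 100 carried an outlier flag or was saturated. They lay all over the array, with 20, 30, 22 and 28 genes in 4 bands of rows. Their spread among arrays of 1 group was wider, with a median SD of 0.86 log2 units against 0.46 for all genes.

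The 100 genes were next followed across the copper groups. Each gene was centred on its own mean over the 48 copper arrays, and the median over the 100 genes was taken on each array. At 3 days this median was 1.08 ± 0.18 in CuNO3 EC20 and 0.96 ± 0.34 in CuNO3 EC50 (SD, n = 3 here and below), 0.90 ± 0.50 in Cu-NPs EC20 and 0.34 ± 0.04 in Cu-NPs EC50. It was -0.44 ± 0.76 and -0.05 ± 0.15 in Cu-NWires EC20 and EC50, and -0.20 ± 0.53 and 0.06 ± 0.42 in Cu-Field EC20 and EC50. The Control 3 days arrays had 1.66 ± 0.08. Every copper array at 3 days lay below the lowest control array of that day (1.58), the closest being replicate 1 of Cu-NPs EC20 with 1.47. Part of this gap follows from the choice of genes high in these controls, so it was not tested.

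At 7 days the same median was 0.16 ± 0.43 in CuNO3 EC20, -0.47 ± 0.89 in CuNO3 EC50, 0.31 ± 0.43 in Cu-NPs EC20 and -0.74 ± 0.82 in Cu-NPs EC50. It was -0.25 ± 0.48 and -0.22 ± 0.78 in Cu-NWires EC20 and EC50, and -0.42 ± 0.27 and -0.79 ± 0.75 in Cu-Field EC20 and EC50. The Control 7 days arrays had -0.60, -1.05 and, in the dim replicate 3, 0.12. All 8 copper groups overlapped the controls of that day. Arrays of a group spread widely at 7 days, most of all in CuNO3 EC50 (-1.12 to 0.54) and Cu-NPs EC50 (-1.53 to 0.12).

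**Figure D1:**
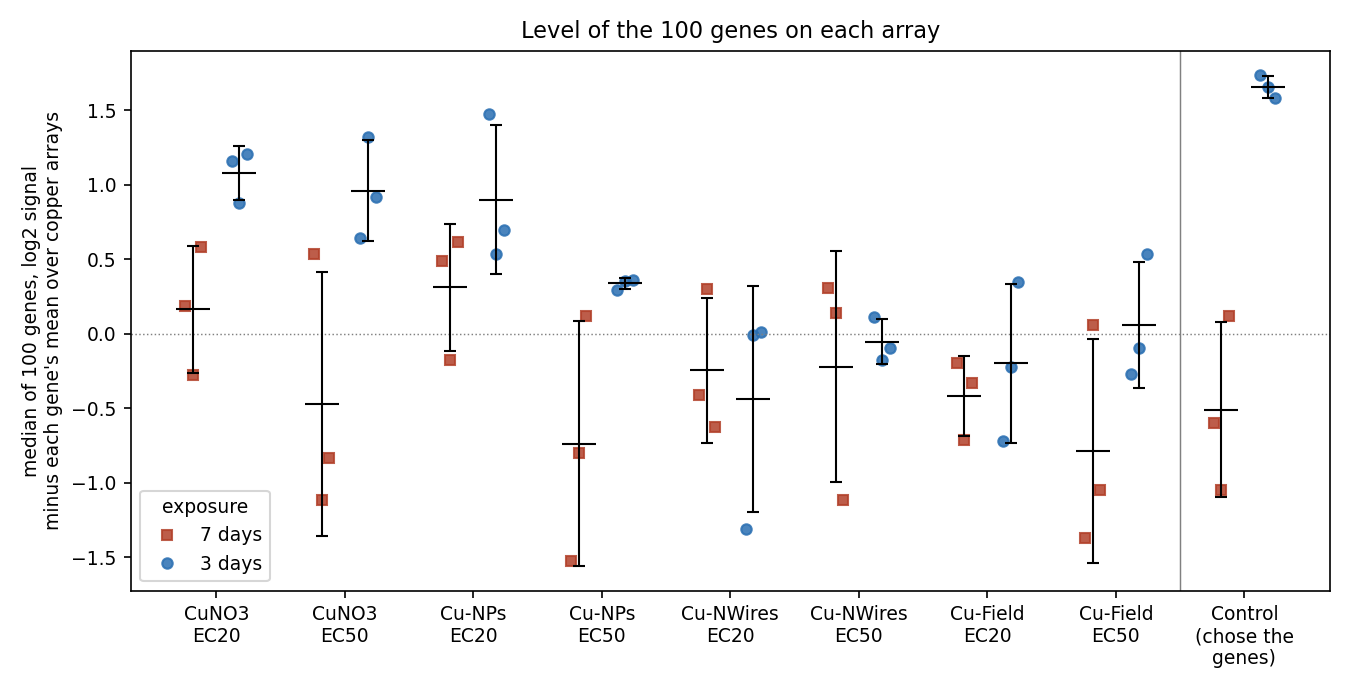
Level of the 100 genes on each of the 54 arrays: each gene's log2 level is centred on its mean over the copper arrays, and a point is the median over the 100 genes on 1 array (squares 7 days, circles 3 days). Bars give the mean and SD of 3 arrays. The CuNO3 and Cu-NPs arrays at 3 days all lie above 0, the Cu-NWires and Cu-Field arrays at both days lie on either side of it, and the control arrays on the right, which chose the genes, are apart by construction.

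Gene by gene, the group means at 3 days placed 93 of the 100 genes between the Control 7 days and the Control 3 days means in CuNO3 EC20, 83 in CuNO3 EC50, 94 in Cu-NPs EC20 and 88 in Cu-NPs EC50. In the other forms many genes lay below even the Control 7 days mean, 40 in Cu-NWires EC20, 25 in Cu-NWires EC50, 23 in Cu-Field EC20 and 16 in Cu-Field EC50. Nearer to the Control 7 days mean than to the Control 3 days mean at 3 days were 90 genes in Cu-NWires EC20 and 86 in Cu-Field EC20, but 17 in CuNO3 EC20. By 7 days, 72 (Cu-NPs EC20) to 93 (Cu-NWires EC50) of the 100 were nearer to the Control 7 days mean in each of the 8 copper groups. The count nearer to the Control 7 days mean at 3 days was 22 in Cu-NPs EC20, 26 in CuNO3 EC50 and 57 in Cu-NPs EC50, and it was 77 in Cu-NWires EC50 and 69 in Cu-Field EC50. The genes were chosen for control means that lie far apart, which shifts all these counts. They are a description without a share over all genes, and were not tested.

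The control arrays chose the genes, so the first comparison asked whether the same genes were also lower at 7 days than at 3 days in copper-exposed worms. Averaged over the 8 copper treatments, 51 of the 100 genes fell at 7 days and none rose (limma on the 48 copper arrays, Benjamini-Hochberg adjusted p under 0.05 over all genes). Of all genes, 11.7% were called lower and 7.2% higher in this comparison. The log2 difference of the 100 genes had a median of -0.67, against -0.07 for all genes, and was negative for 95 of them, against 61.1% of all genes. The 51 genes differed by -1.48 to -0.45, with a median of -0.80. The -2.20 of all 100 genes in the controls is enlarged by the choice on those arrays, so the sizes were not compared. At an unadjusted p under 0.05, 76 of the 100 passed, all lower, against 33.8% of all genes in either direction. The median was -0.37 under SVCD normalization from its default start, an alternative of the study's methods, and -0.30 after normexp background correction, with 21 genes (2.44% of all genes) and 23 genes (3.97%) called lower. The count was 32 of 100 (6.71% of all genes) when the median signal of each array entered the fit, a value taken up below.

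The gene with the smallest p was contig24536. Its level on the copper arrays ran from -2.46 to 1.41 with a median of -1.05 at 7 days, against -2.34 to 3.13 with a median of 0.60 at 3 days. It fell 2.4-fold (log2 -1.26 ± 0.20 SE, limma adjusted p = 7.01e-05). The days overlap widely, and the high values at 3 days are those of CuNO3.

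The second, contig17599, ran from -3.40 to -0.11 with a median of -1.67 at 7 days, against -2.60 to 1.41 with a median of -0.54 at 3 days, and fell 2.41-fold (log2 -1.27 ± 0.21 SE, limma adjusted p = 1.26e-04). Next came contig00334, with 7-day levels of -0.23 to 2.31 (median 0.58), against 3-day levels of -0.50 to 4.2 (median 1.74), and a log2 difference of -0.93. For GYUW2K402IM70Z the levels were -0.92 to 2.02 (median 0.37) at 7 days, against -0.68 to 3.47 (median 1.44) at 3 days, with a log2 difference of -0.99. The fifth, contig07733, had -2.03 to 0.74 (median -0.68) at 7 days, against -1.76 to 1.36 (median 0.20) at 3 days, with a log2 difference of -0.91. These 5 genes held ranks 5 to 34 in the controls. All 5 also had an adjusted p under 0.05 with array signal in the fit.

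The first-ranked genes of the controls were called in part only. The first, contig14152, had levels from -1.55 to 5.29 with a median of 2.79 on the copper arrays at 7 days, against -1.01 to 6.53 with a median of 2.66 at 3 days. Its log2 difference was 0.02 ± 0.49 SE (limma adjusted p = 0.979), and -0.02 after normexp. Of the first 10, contig07971 (log2 -1.48, the largest difference among the 100), GYUW2K402HGSSD (-0.91), contig24536 and contig13956 (-0.97) fell. The remaining 6, contig14152 among them, had differences from -0.88 (GYUW2K402J45TH, adjusted p = 0.0540) to 0.02 and did not pass. GYUW2K402HGSSD did not pass without replicate 2 of CuNO3 EC50 3 days, replicate 3 of Cu-Field EC20 3 days, replicate 3 of Cu-Field EC50 3 days or replicate 1 of Cu-NPs EC50 7 days, with slide as a block (adjusted p = 0.0531), with array signal in the fit (0.0808) or under default SVCD (0.0901). GYUW2K402J45TH passed without any of several single arrays. At the lower end contig07423 fell (log2 -0.77) and so did contig08580, the first gene left out (-0.56).

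Positive differences were found for 5 genes, contig23645 (0.29), GYUW2K401CF1ZK (0.25), GYUW2K402J1L2E (0.13), GYUW2K401EKBHH (0.11) and contig14152 (0.02), none past the threshold.

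Treatment by treatment, the difference between days was found in the salt at the higher level more than elsewhere. In CuNO3 EC50, 31 of the 100 genes fell at 7 days (11.8% of all genes were called lower), with a median log2 difference of -1.68. In Cu-NPs EC50 3 fell (1.7% of all genes), with a median of -1.08. None was called in CuNO3 EC20 (0.169% of all genes called lower), Cu-NPs EC20 (0.041%), Cu-NWires EC20 (0%), Cu-NWires EC50 (0%), Cu-Field EC20 (0.0974%) or Cu-Field EC50 (0.805%). For the 6 without calls the median log2 differences were -0.90, -0.67, 0.08, -0.17, -0.35 and -0.77 in that order, and 20 genes or more were lower at an unadjusted p under 0.05 in CuNO3 EC20 (30, against 8.77% of all genes), Cu-NPs EC20 (20, against 4.87%) and Cu-Field EC50 (31, against 12.1%). The counts were 3 (0.985%) and 1 (2.72%) in the EC20 and EC50 groups of Cu-NWires and 1 (4.36%) in Cu-Field EC20. No gene of the 100 was called higher in any treatment.

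The count in CuNO3 EC50 depended on single arrays. It was 10 without replicate 2 at 3 days, 12 without replicate 2 at 7 days, 18 without replicate 3 at 7 days and 47 without replicate 1 at 7 days. That last array lay apart from the other 2 of its group, with a median of the 100 genes of 0.54, against -1.12 and -0.83. The 3 calls of Cu-NPs EC50 were 0 without replicate 2 or 3 at 3 days or replicate 1 at 7 days, 1 without replicate 2 at 7 days and 7 without replicate 3 at 7 days. In CuNO3 EC20, where none was called, 7 genes were lower without replicate 1 at 7 days, and in Cu-Field EC50 4 were lower without replicate 2 at 7 days. These left-out counts have no share over all genes beside them, so they do not show moves particular to the 100 genes. All arrays of Cu-Field EC20 at 3 days were scanned on another day than those at 7 days, so that scan and exposure time cannot be told apart there.

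**Figure D2:**
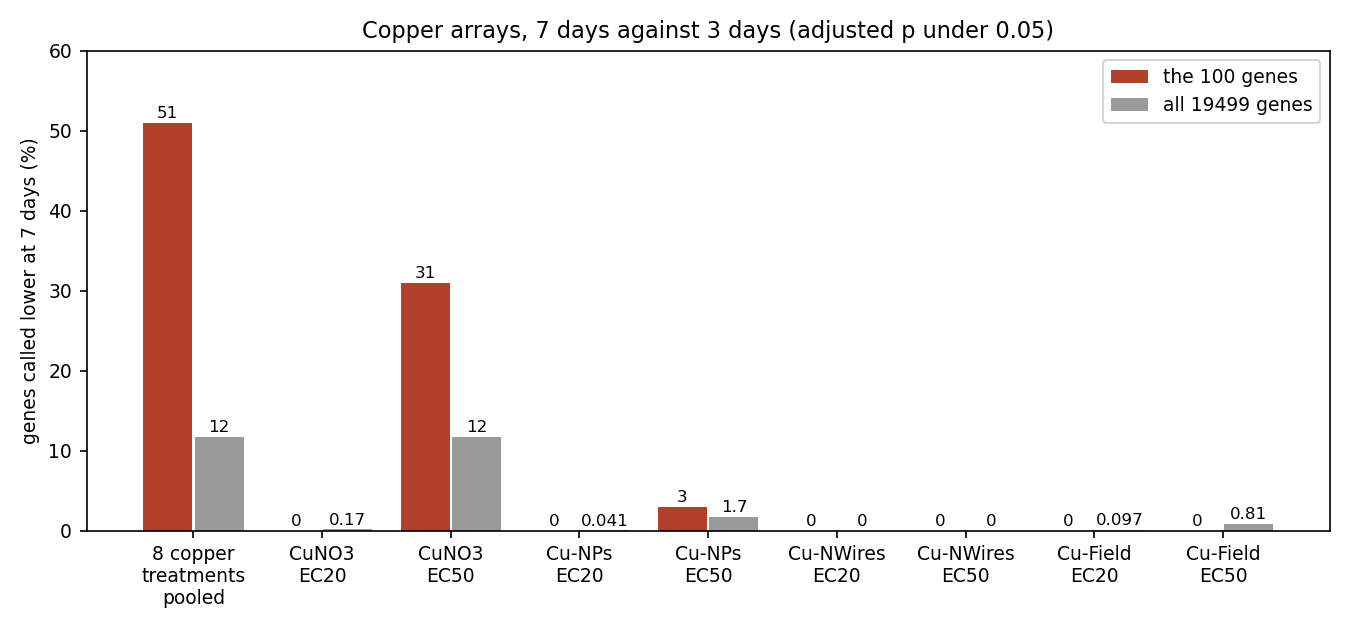
Percentage of genes called lower at 7 days than at 3 days (limma, adjusted p under 0.05) among the 100 genes (red) and among all 19499 genes (grey), for the 8 copper treatments pooled and one by one. Calls among the 100 genes were made in the pooled comparison (51), CuNO3 EC50 (31) and Cu-NPs EC50 (3) only.

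A test of whether the time difference itself varied among the 8 copper treatments (moderated F-test in limma, Benjamini-Hochberg adjusted) called 4 of the 100 genes, and 2.24% of all genes. This is little above the share over all genes, so the 4 are described as single genes and not as a trait of the 100. The 4 genes were GYUW2K402IM70Z (adjusted p = 0.00101), contig24536 (0.00112), contig00334 (0.0104) and contig14534 (0.0411). Under default SVCD the test called 8 of the 100 but 33.5% of all genes. For each of these 4 genes the difference was most negative in CuNO3 EC50, and it was close to 0 or positive in Cu-NWires EC50 and Cu-Field EC20.

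GYUW2K402IM70Z had levels of -0.84, -0.79 and -0.62 in CuNO3 EC50 at 7 days, against 2.51, 3.47 and 3.02 at 3 days. The groups were far apart, and the gene fell 13.4-fold (log2 -3.75 ± 0.50 SE, limma adjusted p = 5.87e-05). In Cu-NPs EC50 it had -0.66, 0.19 and 0.18 at 7 days, against 1.11, 2.30 and 1.56 at 3 days, again without overlap (log2 -1.75, adjusted p = 0.0449). In Cu-NWires EC20 it had 1.12, 1.14 and 1.5 at 7 days, against -0.03, 1.22 and 0.77 at 3 days, and these groups overlapped (log2 difference 0.60, adjusted p = 1).

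For contig24536 the arrays of CuNO3 EC50 had -1.69, -1.84 and -1.93 at 7 days, against 3.13, 3.01 and 1.77 at 3 days. This was a 22.0-fold fall (log2 -4.46 ± 0.57 SE, limma adjusted p = 5.24e-05). In Cu-NPs EC50 it had -2.46, -1.56 and -0.91 at 7 days, against 0.79, 0.98 and 0.84 at 3 days (log2 -2.51, adjusted p = 0.0204). Cu-Field EC20 was low at both days, with -1.38, -0.82 and -1.5 at 7 days, against -2.34, -1.55 and -0.72 at 3 days. The same held in Cu-NWires EC50, with -0.35, 0.18 and -1.34 at 7 days, against 0.04, -1.85 and -0.52 at 3 days.

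For contig00334 the arrays of CuNO3 EC50 had 0.99, 0.67 and 0.03 at 7 days, against 3.85, 4.2 and 2.36 at 3 days (7.5-fold lower at 7 days, limma adjusted p = 3.46e-04). Cu-NPs EC50 had -0.14, 0.03 and 0.45 at 7 days, against 1.71, 2.49 and 2.11 at 3 days (adjusted p = 0.0204). No overlap was seen in either. In Cu-NWires EC50 the levels were 1.08, 1.72 and 0.43 at 7 days, against 1.14, 0.30 and 0.41 at 3 days, with a log2 difference of 0.46 ± 0.45 SE.

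The fourth gene, contig14534, was the most variable. Its 7-day levels in CuNO3 EC50 were -2.57, 1.64 and 2.01, against 5.39, 5.04 and 4.86 at 3 days (log2 -4.74 ± 1.46 SE, limma adjusted p = 0.0247). In CuNO3 EC20 they were 4.61, -1.34 and -1.87, against 5.0, 4.84 and 5.42 (adjusted p = 0.138), so that 1 of the 3 arrays stayed near the 3-day level. In Cu-Field EC20 they were 3.23, 2.37 and -2.01, against -2.25, -2.51 and -0.65, the opposite order on 2 of 3 arrays, with a log2 difference of 3.00 that did not pass (adjusted p = 0.725).

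**Figure D3:**
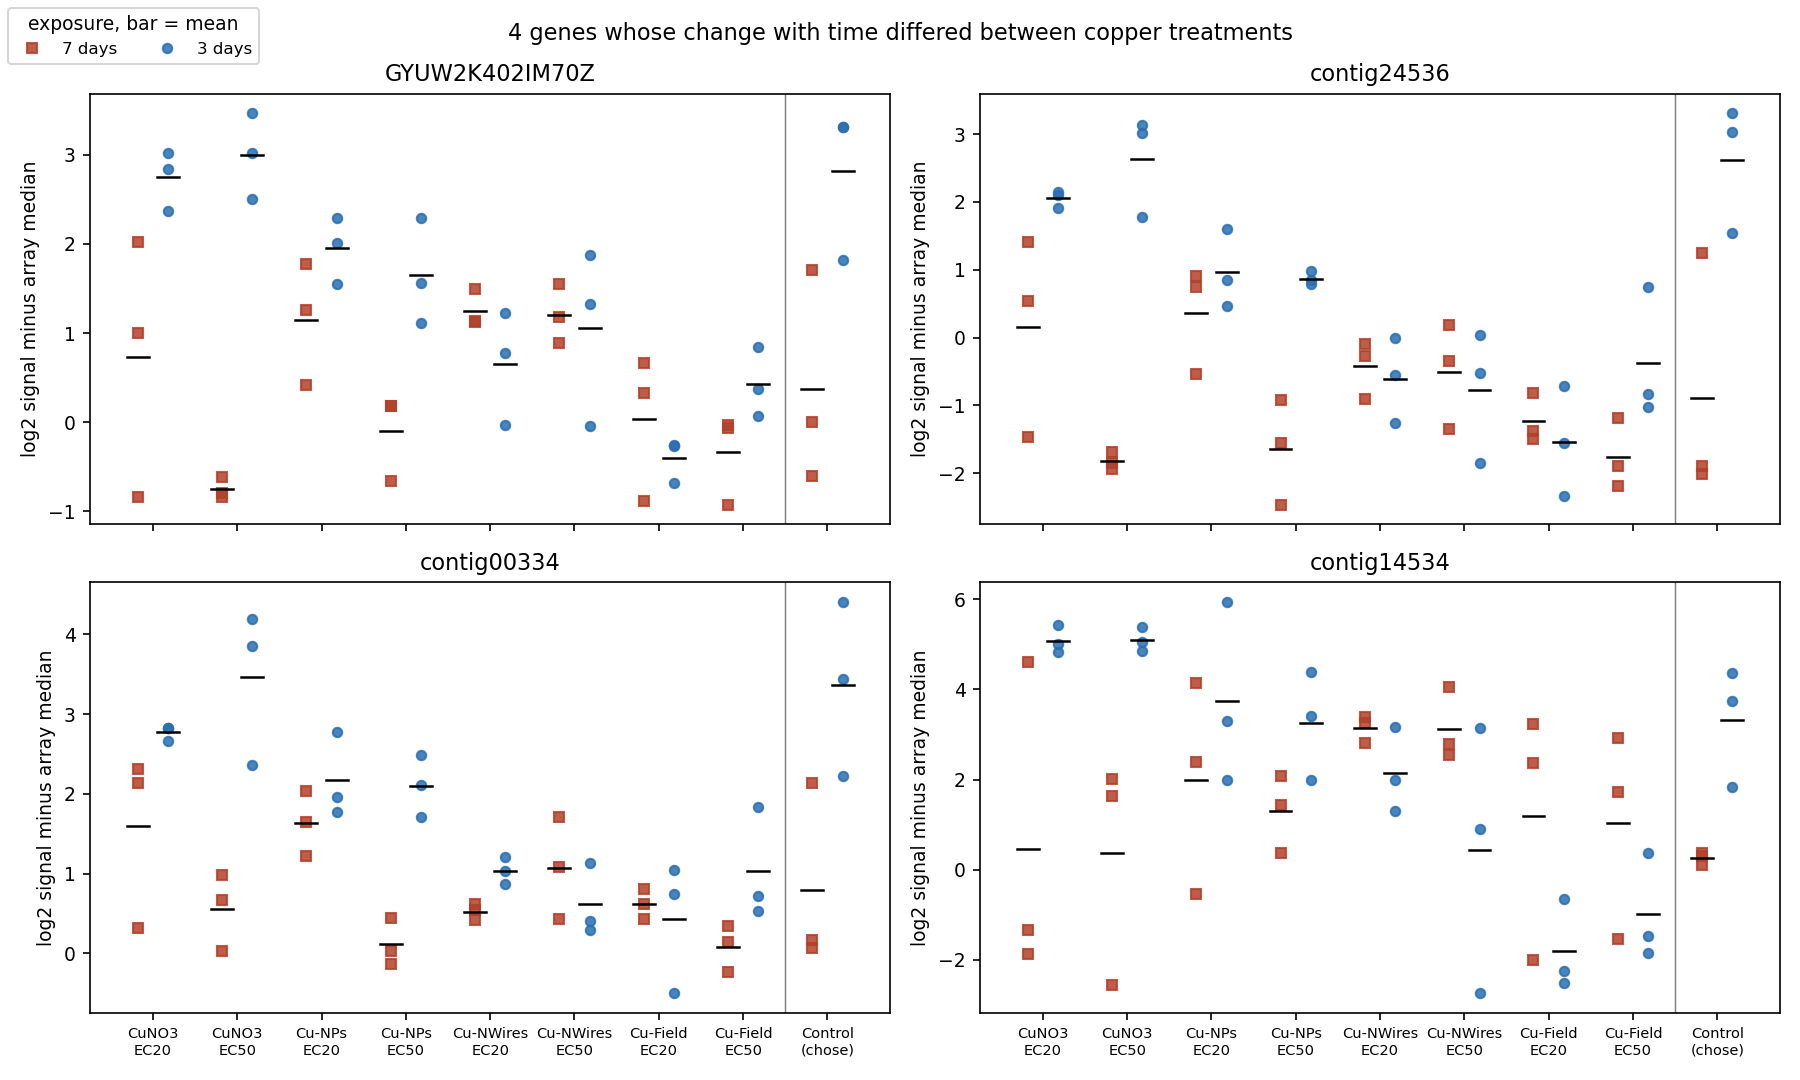
Levels (log2 signal minus the array median) of the 4 genes whose difference between days varied among the copper treatments, by treatment, with 1 point per array (squares 7 days, circles 3 days) and the mean of 3 arrays as a bar. In CuNO3 EC50 the 7-day arrays lie below all 3-day arrays for each of the 4 genes, whereas in the Cu-NWires groups the days overlap for GYUW2K402IM70Z, contig24536 and contig14534. The control arrays on the right chose the genes.

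On the day when the control levels were high, the copper treatments differed from each other for many of these genes. Among the 8 copper groups at 3 days, 41 of the 100 genes differed (moderated F-test, limma, adjusted p under 0.05), against 19.7% of all genes. The larger share among the 100 was not seen under SVCD, with 42 genes against 40.3% of all genes when started from the scaled arrays and 19 against 61.3% from the default start. Relative to CuNO3, with EC20 and EC50 averaged, Cu-NWires were lower for 57 genes (19.7% of all genes called lower), with a median log2 difference of -1.32. Cu-Field was lower for 42 (18.3%), with a median of -1.02, against medians of -0.16 over all genes in both contrasts. Under SVCD from its default start the median levels at 3 days were 5.93 and 5.84 in CuNO3 EC20 and EC50. Those of Cu-NWires were 6.86 and 6.80 and those of Cu-Field 6.84 and 6.47, which makes both falls smaller there. Over the form contrasts of both days it called 58 pairs of gene and contrast, against 103 here. For Cu-NPs relative to CuNO3 none was called (0.00513% of all genes lower), with a median of -0.35. At an unadjusted p under 0.05, 14 genes were lower, against 3.64% of all genes. None of the 100 was called higher in these contrasts. The difference between nanoparticles and salt had a median standard error of 0.47, and the missing calls do not show that both forms acted alike.

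The genes called by the interaction test, which used these same arrays, had larger steps than the median of the set. That median log2 difference from CuNO3 at 3 days was -1.02 in Cu-Field and -1.32 in Cu-NWires. The Cu-Field fall of contig14534 was the largest of the set, so the folds below do not show a typical size. Relative to CuNO3 at 3 days, contig14534 was 90.0-fold lower in Cu-Field (log2 -6.49 ± 1.03 SE, limma adjusted p = 1.07e-04) and 14.0-fold lower in Cu-NWires. The Cu-Field arrays had -2.25, -2.51 and -0.65 at EC20 and 0.36, -1.48 and -1.85 at EC50, against 5.0, 4.84 and 5.42 for CuNO3 EC20 and 5.39, 5.04 and 4.86 for CuNO3 EC50, with no overlap. The gene contig24536 was 9.82-fold lower in Cu-Field (adjusted p = 4.04e-06) and 8.19-fold lower in Cu-NWires (adjusted p = 3.16e-05). For GYUW2K402IM70Z the folds were 7.26 and 4.05, and for contig00334 they were 5.24 and 4.91.

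The arrays of these forms also differed in brightness at 3 days. The group means of array median log2 signal were 6.75 and 6.65 in Cu-NWires EC20 and EC50 and 6.91 and 6.72 in Cu-Field EC20 and EC50, against 6.20 and 6.32 in CuNO3 EC20 and EC50. With array signal in the fit, 33 of the 100 genes were called lower in Cu-NWires (9.37% of all genes) and 14 in Cu-Field (4.52%). The part of signal in these differences was not tested beyond this.

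On the day when the control levels were low, fewer genes differed between copper groups, 8 of 100 (moderated F-test, limma), against 9.43% of all genes. The share among the 100 was thus no larger than over all genes, where calls were also fewer than at 3 days (19.7%). The smallest p was that of GYUW2K401DMS29 (adjusted p = 0.0109), the weakest of the 100 genes. It had -5.11, -5.65 and -4.01 in Cu-Field EC50 at 7 days, against -2.94, -2.90 and -3.49 in CuNO3 EC50, without overlap, although no Cu-Field EC50 array was well above background. Next came GYUW2K402JXTUW (adjusted p = 0.0161), with -0.22, 0.22 and 1.40 in Cu-Field EC50 at 7 days, against -0.53, -2.29 and -3.03 in CuNO3 EC50. The third, contig22037 (adjusted p = 0.0176), had 0.67, 1.63 and 2.64 in Cu-Field EC50, against -0.03, 0.44 and -0.01 in CuNO3 EC50. So the 3 genes did not share 1 order of treatments.

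By form at 7 days, relative to CuNO3, no gene of the 100 was called in Cu-NPs (0% of all genes lower). In Cu-NWires none was lower (1.27%) and 1 was higher (1.55%), GYUW2K402IM70Z with a log2 difference of 1.24 (limma adjusted p = 0.0463). In Cu-Field 2 were lower (2.49%) and 1 was higher (0.805%), GYUW2K402JXTUW with a log2 difference of 1.68 (adjusted p = 0.0436). These calls depended on single arrays. Leaving out 1 copper array gave 0 to 17 genes lower in Cu-Field (17 without replicate 2 of CuNO3 EC20 7 days, 6 without replicate 3 of Cu-Field EC20 7 days) and 0 to 5 higher, and the Cu-NWires call was lost without any 1 of 20 of the 48 arrays. No share over all genes is given for these left-out counts. The median differences were -0.04, -0.07 and -0.43 for Cu-NPs, Cu-NWires and Cu-Field. The 8 calls of the F-test ranged from 4 to 22 when single copper arrays were left out. There were 22 without replicate 2 of CuNO3 EC20 7 days, where 5088 of all genes were called, against 1839 with it. No call among the 100 was left with array signal in the fit.

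Few differences were found between EC50 and EC20. No gene of the 100 was called over the 8 contrasts of EC50 with EC20 together (moderated F-test, limma, 0.0769% of all genes, smallest adjusted p among the 100 0.0936), and 14 had an unadjusted p under 0.05, against 17.1% of all genes. Within single contrasts, 4 genes were lower at EC50 in Cu-NPs at 3 days (1.54% of all genes called lower), and in Cu-NPs at 7 days 6 were lower (3.35%) and 2 higher (2.97%). The other 6 contrasts had no call among all genes. The clearest case was contig26074, with 1.39, 1.2 and 1.17 in Cu-NPs EC50 at 3 days, against 5.95, 3.64 and 5.59 in Cu-NPs EC20, a 14.0-fold lower level (limma adjusted p = 0.0184). At 7 days it had -0.64, -1.03 and 3.38, against 3.86, 2.96 and 4.52, and 1 array of EC50 overlapped (adjusted p = 0.0375). GYUW2K402HPWT0 had -0.87, -1.47 and -1.86 in Cu-NPs EC50 at 3 days, against 1.11, 0.14 and 0.19 in Cu-NPs EC20 (adjusted p = 0.0172), without overlap.

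Most of the 100 genes moved together over the 48 copper arrays. The 4950 pairs had a median correlation of 0.47 (range -0.59 to 0.99), and 668 were below 0. With the median of the other 99, 82 of the 100 genes had a correlation above 0.5 and 8 were below 0, at a median of 0.73. Among the 19399 genes outside, 25.1% were above 0.5 and the median was 0.19. These are descriptions over arrays that share groups and signal. The closest pairs were GYUW2K401A5WY6 with contig08516 (0.99) and GYUW2K401A56MY with GYUW2K401DMBKU (0.99), and the most similar genes outside were GYUW2K402H1O5N (0.94, at rank 149 of the control ranking), GYUW2K401CWM4K (0.94) and contig19426 (0.92). The last 2 differed by -1.79 and -1.77 between the control days with overlapping arrays.

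Average-linkage clustering on these correlations gave a larger cluster of 85 genes and a smaller one of 15. Of the larger cluster 47 genes fell at 7 days in the pooled copper comparison, with a median log2 difference of -0.69, and 40 differed among copper groups at 3 days. Of the smaller, 4 fell and 1 differed at 3 days, with a median log2 difference of -0.34. In Cu-NPs EC20 at 7 days the smaller cluster had a median of -0.93 ± 0.26 and the larger one 0.44 ± 0.44. In Cu-Field EC50 at 7 days the order was reversed, with 0.40 ± 0.63 for the smaller and -0.93 ± 0.82 for the larger. As the clusters were drawn from these arrays, the comparison has no test. The smaller cluster held contig07971 and GYUW2K401EQHLZ, whose differences between days in copper were the largest of the 100 (-1.48 and -1.45), and 4 of the 5 genes with a positive difference.

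The level of the 100 genes also followed the brightness of the arrays. Over the 48 copper arrays the median of the 100 genes had a Pearson correlation of -0.73 and a Spearman correlation of -0.81 with the median log2 signal of the array (-0.78 and -0.80 without the 2 arrays farthest from the median signal). Within day the Pearson correlation was -0.74 at 7 days and -0.75 at 3 days (24 arrays each), and over deviations from group means it was -0.59. Single genes among the 100 had a median correlation with array signal of -0.55, with 57 below -0.5, against -0.15 and 20.5% of all genes. The arrays at 7 days had a median signal of 5.17 to 7.09 (median 6.68), against 5.50 to 7.16 (median 6.46) at 3 days. So the brighter arrays had lower levels of these genes, and the 7-day arrays were on the whole slightly brighter. With array signal as a term, chosen after the data had been seen, 32 of the 100 genes were called lower at 7 days, and the median log2 difference was -0.54. Whether signal accounts for more of the pattern was not tested.

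**Figure D4:**
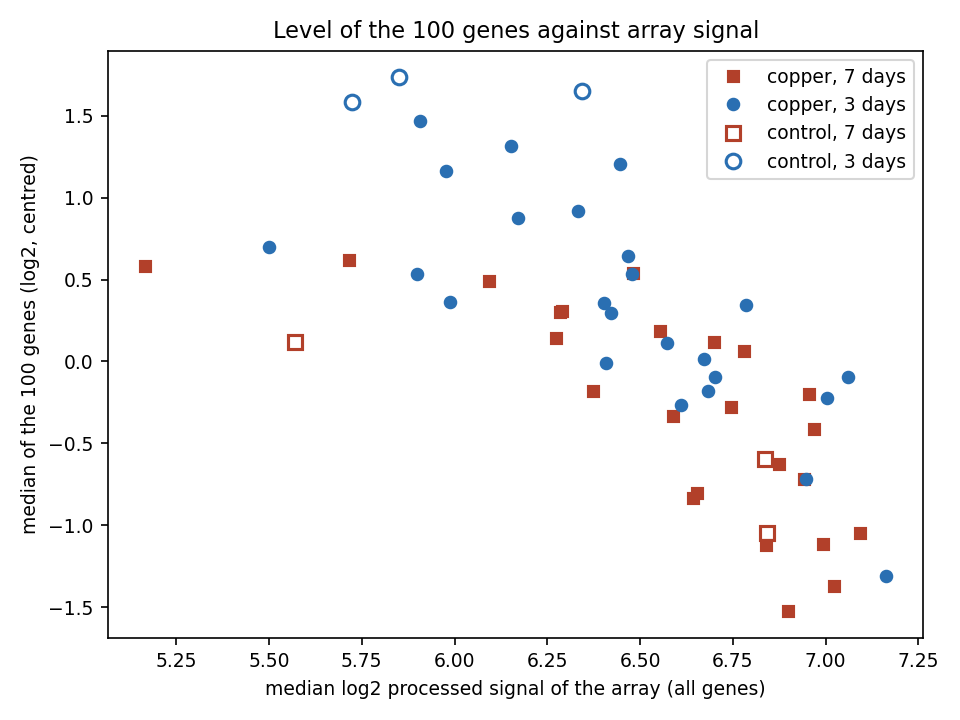
Median of the 100 genes on each array (vertical axis, log2 level centred on the copper mean of each gene) against the median log2 processed signal of the array (horizontal axis), with copper arrays filled and control arrays open, squares for 7 days and circles for 3 days. Levels are lower on brighter arrays (Pearson -0.73 over the 48 copper arrays), and the Control 7 days array at 5.57 is far dimmer than the other 2 of its group at 6.84.

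The difference between days was also looked at within slides and scan days. On 9 slides with copper arrays of both days, the median of the 100 genes was lower at 7 days on 7, with a median difference of -0.49 (-1.81 to 0.75). The arrays of the 2 days on a slide were mostly of different treatments, so time and treatment cannot be told apart there. The slide with -1.81 set Cu-NWires EC20 at 7 days against CuNO3 EC50 and Cu-NPs EC20 at 3 days. The slide with 0.75 set Cu-NPs EC20 at 7 days against Cu-NWires EC50 at 3 days. Within each of the 2 scan days (24 copper arrays and 6 treatments with both times each), 97 and 96 of the 100 genes had a negative difference, with medians of -0.84 and -0.59. At that size 0 genes were called on the first day (0.0308% of all genes lower) and 1 on the second (0.708%), and 39 and 41 were lower at an unadjusted p under 0.05 (limma), against 9.87% and 9.94% of all genes.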

How the data were processed

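Total RNA of 54 pools of 20 adult worms was hybridised to a custom 1-colour Agilent array, with 3 arrays in each of 18 groups taken from the treatment labels. The processed signals used are intensity values deposited by the authors in the scanner files. Per the file headers, Agilent Feature Extraction 10.7.3.1 had subtracted the background and detrended each array, with no normalization between arrays. The deposited value table holds the same intensities rounded (ratios 0.995 to 1.005), and 0 columns belonged to samples of another series. Array medians ran from 35.9 to 143 on the linear scale. With 3 arrays a group, precision is limited by their number.

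Probes with a positive and significant signal on all 54 arrays were kept (19499), transformed to log2 and scaled to the median of each array, one of the normalizations of the study's methods. The 100 members and all lists were chosen with earlier results of these data known. The contrasts were fitted in limma 3.58.1 (R 4.3.3) with 1 mean per group over the 48 copper arrays, and p-values were adjusted by Benjamini-Hochberg over all genes with a threshold of 0.05. Time and form contrasts were adjusted one by one. The 6 control arrays were left out of the fit because they chose the members. Steps were tested on simulated data. The plots came from matplotlib 3.10.9 and pandas 2.3.3 under Python 3.11.15.

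Genes named were the first 10, the last and the first outside, the 5 called lower with the smallest p in the pooled time contrast, and the 3 with the smallest p in each F-test; no probe shares a name with another. Others were named after their values were seen. Gene lists by function were not made, as the files pair no probe with a gene name. Alternatives were the 75th percentile, Quantile and SVCD normalization (by the published script), normexp (offset 50, on median and local background signals, since mean signals are not used here), filters on dim and outlying spots, blocks for slide, scan day and replicate number, all 54 arrays in the fit, the t-test of the methods, and leaving out each array.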

Additional observations from a re-analysis of the deposited data

Results flagged for a closer look

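For 4 of the 100 genes the difference between 7 and 3 days varied among the 8 copper treatments by the interaction F-test of limma over all genes, with adjusted p of 0.00101 for GYUW2K402IM70Z, 0.00112 for contig24536, 0.0104 for contig00334 and 0.0411 for contig14534. In CuNO3 EC50 their log2 differences, 7 days minus 3 days, were -3.75, -4.46, -2.91 and -4.74, and in Cu-NWires EC50 they were 0.15, 0.27, 0.46 and 2.70. The share of all genes called by this test was 2.24%, so 4 of 100 is little above it.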

How the results depend on the processing

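The pooled median time difference of the 100 genes kept its sign, and their other medians and the genes not named were not followed. No named gene with a call changed sign. Of the named genes without a call, contig14152 (-0.02 after normexp), GYUW2K402JXTUW (0.26 under default SVCD, 0.04 after normexp and with a slide or scan day block), contig22037 (0.18 under default SVCD, close to 0 with the scan day block) and GYUW2K402HPWT0 (close to 0 there) did, the first 3 also without some single arrays. Of the counts under the alternatives, most of them from leaving out single arrays, 429 stayed within 1.5 times the value reported and 43 did not. Under SVCD normalization from its default start, which moved the median time difference of all genes to 0.23, against -0.07 with the array median, the calls were 21 in the pooled time comparison (2.44% of all genes, and 1 of the 100 higher; median -0.37), 19 by treatment, 19 among groups at 3 days (61.3% of all genes), 8 for the interaction (33.5%), 4 for the effect level (13.2%) and 58 for form. SVCD started from the scaled arrays gave 18 calls at 7 days (25.9%). Normexp gave 23 pooled calls (3.97%, median -0.30) and 3 at 7 days (444 of all genes). Genes well above background on all arrays, 61 of the 100, gave 33 pooled calls (1605 of the 12827 genes kept). With array signal in the fit, chosen after seeing the data, the calls were 32 pooled (6.71%), 10 at 3 days (5.68%), 0 at 7 days (0.0513%) and 48 for form. The deposited value table, also added then, gave the counts reported. By treatment, the methods' t-test called 0 pairs of gene and treatment lower after Benjamini-Hochberg, against 34 in limma, also adjusted. Unadjusted it called 102 pairs. These were 12 in CuNO3 EC20 (3.46% of all genes lower), 26 in CuNO3 EC50 (18.6%), 19 in Cu-NPs EC20 (2.91%) and 16 in Cu-NPs EC50 (14.1%). In Cu-NWires EC20 and EC50 they were 6 (1.4%) and 1 (2.09%), and in Cu-Field EC20 and EC50 7 (4.49%) and 15 (12.8%). The cause of these moves was not tested.

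Slide as a block gave 34 pooled calls (1326 of all genes) and scan day 36 (1521), against 51 (2282) in the main fit. The replicate block gave 45 pooled calls (2126) and 31 by treatment. Over 360 pairs of arrays that share a number, the deviations had a mean correlation of -0.020 (-0.71 to 0.60). Over 720 pairs with different numbers it was 0.0099 (-0.78 to 0.82). Whether arrays of 1 number share a block was not tested beyond this.

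Leaving out single copper arrays gave 36 to 64 pooled calls (median log2 difference -0.72 to -0.61), 13 to 51 by treatment, 35 to 45 at 3 days, 4 to 22 at 7 days, 3 to 7 for the interaction, 0 to 10 for the effect level and 79 to 125 for form. By treatment 13 were left without replicate 2 of CuNO3 EC50 3 days, and 14 and 20 without replicates 2 and 3 of CuNO3 EC50 7 days. At 7 days the count was 22 without replicate 2 of CuNO3 EC20 (5088 of all genes, against 1839 in the full fit). It was 20 (3381) without replicate 3 of Cu-NWires EC50 7 days and 19 (3456) without replicate 3 of Cu-NPs EC50 7 days. The effect level had 10 calls without replicate 2 of CuNO3 EC20 7 days (2351 of all genes, against 15 in the full fit). It had 6 (654) without replicate 3 of Cu-NPs EC50 7 days. The interaction had 7 without replicate 1 of CuNO3 EC50 7 days (444 of all genes, against 436 in the full fit). For the other left-out counts no share over all genes is given. Choosing 100 genes again without 1 control array gave 39 to 99, 30 to 100, 21 to 48, 7 to 13, 2 to 8, 0 to 0 and 78 to 200 calls in the same order. The extremes 99, 100, 21, 13, 2 and 200 are those without replicate 3 of Control 7 days. The median pooled log2 difference of the genes chosen again ran from -1.67 without that array to -0.52 without replicate 2 of Control 7 days.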
